A study of Mus musculus with 10 samples.

Results

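The genes described here are 8 mouse genes of MHC class II antigen presentation, H2-Aa, H2-Ab1, H2-Eb1, H2-DMa, H2-DMb1, H2-Oa, Cd74 and Ciita, in the livers of mice fed a diet high in cholesterol. They were listed by name, with earlier results of these data known. All 8 are among the 21193 genes of the deposited series table, and 7 were named on the scanner arrays through their transcript accessions, out of 32636 names on the array. These 7 genes had 12 probes, and each of the 12 was well above background on all 10 arrays, so the filter on dim probes removed no member. H2-Eb1 had no probe named through an accession, and its values come from the authors' deposited series table.

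Total RNA came from the livers of 10 mice, all males of the C57BL/6NCrSlc strain, with 1 array per mouse. Both groups ate the high-cholesterol diet. The 5 control mice had no extract, and the 5 mulberry mice took mulberry leaf extract in their drinking water for 4 weeks. No group on a normal diet is part of the comparison, so the values say nothing about the diet itself. The labels give no ages and no pairing of mice between the groups.

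MHC class II molecules are pairs of an alpha and a beta chain that show peptides from engulfed or internal vesicle proteins to CD4+ T cells. The invariant chain, the product of Cd74, fills the groove of a new pair and guides it to endosomes. The H2-DM pair then exchanges the leftover fragment of that chain for other peptides, and the H2-DO pair holds H2-DM back. CIITA is the co-activator that sets the level of these genes; it does not bind DNA itself but joins the RFX, CREB and NF-Y proteins on the X and Y boxes of their promoters. In liver, B cells, dendritic cells and macrophages are the usual bearers of class II, and interferon gamma can induce CIITA in other cells. In bulk liver RNA, more cells of a type and more RNA per cell cannot be told apart.

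The promoters of the class II chains are shown because the members varied together and because these boxes are the sites through which CIITA works. RefSeq promoter windows of build GRCm38.p6, each from 250 bases before to 50 bases after the start site, were found for 5 of the 8 members and not for H2-Ab1, Cd74 or Ciita. The searched letters were CCAAT for the Y box, AGCAAC for the core of the X1 box and TGACG for the X2 box, each on both strands. The stretches from -120 to -21 relative to the start site follow, 5′ to 3′ on the strand of the gene, with the letters found in capitals.
H2-Aa, chain alpha of the A pair, chr17:34287844-34287943, minus strand: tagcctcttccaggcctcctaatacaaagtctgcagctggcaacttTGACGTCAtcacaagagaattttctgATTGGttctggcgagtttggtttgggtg
H2-Eb1, chain beta of the E pair, chr17:34305747-34305846, plus strand: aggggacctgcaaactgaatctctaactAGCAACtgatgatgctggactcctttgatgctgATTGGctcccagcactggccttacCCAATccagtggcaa
H2-DMb1, chain beta of H2-DM, chr17:34153071-34153170, plus strand: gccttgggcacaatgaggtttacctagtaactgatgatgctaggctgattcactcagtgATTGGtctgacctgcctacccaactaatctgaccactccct
H2-Oa, chain alpha of H2-DO, chr17:34092259-34092358, plus strand: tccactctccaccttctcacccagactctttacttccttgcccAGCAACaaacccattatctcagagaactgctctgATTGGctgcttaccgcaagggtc

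Each of these 4 stretches held the Y box in its reversed form, ATTGG, 61 to 43 bases before the start site. In H2-Eb1 and H2-Oa the X1 core lay upstream of it, with 27 and 28 bases between them. In H2-Aa the X2 letters lay on both strands and overlapped in a single run. Among 32851 promoter windows of the same length, 37.4% held the Y box letters, 14.8% the X1 core and 20.8% the X2 letters, and 0.408% held an X1 core followed within 60 bases by a reversed Y box. Both windows of H2-DMa lacked the X1 letters, and 1 of them held ATTGG at -198. The X1 core with a reversed Y box after it also stood in the windows of 2 relatives that are not members, H2-Ob and H2-Eb2. A match of letters describes the sequence and does not show binding.

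Before the values, 1 disagreement between the deposited files has to be stated. The scanner files and the series table were compared over 6551 genes by the correlation of their deviations from the mean of the 10 arrays. Each of the 5 mulberry scanner files matched the table column of its own label (r from 0.950 to 0.987), and 0 of the 5 control files did. Each control file matched another control column instead (r from 0.932 to 0.976): files of control 1, 2, 3, 4 and 5 matched the columns of control 2, 3, 4, 5 and 1. The groups are the same in both sources, so no difference between groups is touched, but the number of a control mouse is that of its scanner file here. Values taken from the series table carry the number of the table.

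Levels are log2 signals relative to the 75th percentile of the array, which is 0, and are not compared between genes. That percentile ran from 152.5 to 283.4 fluorescence units over the arrays, and 54.4% to 62.4% of probes were well above background. The arrays lay on 4 slides scanned on 2 days, and 1 slide held both groups. Across genes, the correlation between pairs of arrays was 0.940 to 0.993.

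The class II genes were high in 2 mulberry livers, intermediate in 2 control livers and lower in the other 6. On average they were higher with mulberry, by 1.09 to 1.44 on the log2 scale, but no member's difference passed the test. The SD among the mulberry livers exceeded the difference between the groups in all 7 genes, and the SD among the controls did so in all but H2-Oa.

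H2-Aa and H2-Ab1 code for the alpha and beta chains of the A molecule, the class II pair that C57BL/6 mice display. H2-Aa had log2 levels of 0.31, 3.50, 0.35, 2.74 and 0.72 in control 1 to 5, and of 5.25, 0.46, 0.71, 1.63 and 5.77 in mulberry 1 to 5. Mulberry 1 and mulberry 5 stood above every control, while mulberry 2 and mulberry 3 lay among the low controls, so the groups overlapped. The difference was 1.24 ± 1.13 (SE), with a 95% interval from -1.25 to 3.73 (limma, adjusted p = 0.900).

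H2-Ab1 had log2 levels of 2.43, 5.37, 2.16, 5.03 and 2.60 in control 1 to 5, and of 7.28, 2.71, 2.78, 3.75 and 7.40 in mulberry 1 to 5. The same 2 mulberry livers were highest and control 2 and control 4 came next. Its difference was 1.27 ± 1.08 (SE), interval -1.11 to 3.65 (limma, adjusted p = 0.900). From the lowest to the highest liver the signal of H2-Aa spanned 44.1-fold and that of H2-Ab1 37.7-fold.

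H2-Eb1 codes for the beta chain of the E molecule. C57BL/6 mice carry the H2-b haplotype, in which the alpha chain of this pair is not made, so its transcript is read here without a protein partner, and RefSeq lists H2-Ea as a transcribed pseudogene. In the authors' deposited table its linear intensity was 537, 655, 4266, 442 and 3049 in the columns of control 1 to 5. It was 24015, 748, 608, 1346 and 19822 in those of mulberry 1 to 5. The columns of control 3 and control 5, which match the scanner files of control 2 and control 4, were the high controls for this gene as well. The log2 difference computed from that table was 1.43 ± 1.24 (SE; limma, adjusted p = 0.889), with group means of 10.17 and 11.60.

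Cd74, the invariant chain, had log2 levels of 2.24, 5.09, 2.09, 4.40 and 2.48 in control 1 to 5, and of 7.11, 2.26, 2.45, 3.22 and 7.32 in mulberry 1 to 5. Mulberry 2 and mulberry 3 lay between control 1 and control 5, and mulberry 5 was 16.7 times the geometric mean of the controls. The difference was 1.21 ± 1.1 (SE), interval -1.22 to 3.64 (limma, adjusted p = 0.900).

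H2-DMa and H2-DMb1 form the editor of bound peptides. H2-DMa had log2 levels of -1.88, 0.65, -1.89, 0.29 and -1.30 in control 1 to 5, and of 2.43, -1.54, -1.64, -0.89 and 2.96 in mulberry 1 to 5. H2-DMb1 had log2 levels of 1.20, 2.98, 0.32, 2.84 and 0.62 in control 1 to 5, and of 4.85, 0.87, 1.20, 1.67 and 4.83 in mulberry 1 to 5. Both chains followed the same livers, and the groups overlapped for both. Their differences were nearly equal, 1.09 ± 0.98 for H2-DMa and 1.09 ± 0.90 for H2-DMb1 (SE; limma, adjusted p = 0.900 for each). H2-DMb1 has a close copy, H2-DMb2, whose own probe was well above background on mulberry 1 and mulberry 5 and on no control array, so some cross-hybridisation between them is possible.

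H2-Oa codes for the alpha chain of H2-DO, the inhibitor of H2-DM, which is known from B cells and some dendritic cells. Its log2 levels were -2.92, -1.42, -3.13, -2.21 and -3.51 in control 1 to 5, and 0.70, -2.86, -2.60, -2.43 and 1.21 in mulberry 1 to 5. Here mulberry 2, 3 and 4 lay between control 4 and control 3, and the gap from control 4 to the next liver was 0.22, against 1.11 to 1.28 in H2-Aa, H2-Ab1, H2-DMa, H2-DMb1 and Cd74. H2-Oa had the largest difference of the 7 genes, 1.44 ± 0.82 (SE), interval -0.37 to 3.25, and the smallest unadjusted p of them. In the limma fit across all genes that p was 0.107 (adjusted p = 0.900). Its partner H2-Ob was dim, well above background on 3 of 5 arrays of each group, and was not tested; mulberry 1 (-2.63) and mulberry 5 (-2.97) were its highest levels.

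Ciita, the co-activator of the other genes, had log2 levels of -4.12, -0.79, -3.93, -2.55 and -4.22 in control 1 to 5, and of -0.027, -3.95, -3.68, -3.06 and 0.69 in mulberry 1 to 5. Its first 5 livers were the same as in the other members, but control 2 came closer to the high mulberry livers. Mulberry 1 exceeded control 2 by 0.76 in Ciita and by 1.75 to 2.11 in the other 6. The difference was 1.12 ± 1.0 (SE), interval -1.09 to 3.33 (limma, adjusted p = 0.900).

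**Figure D1:**
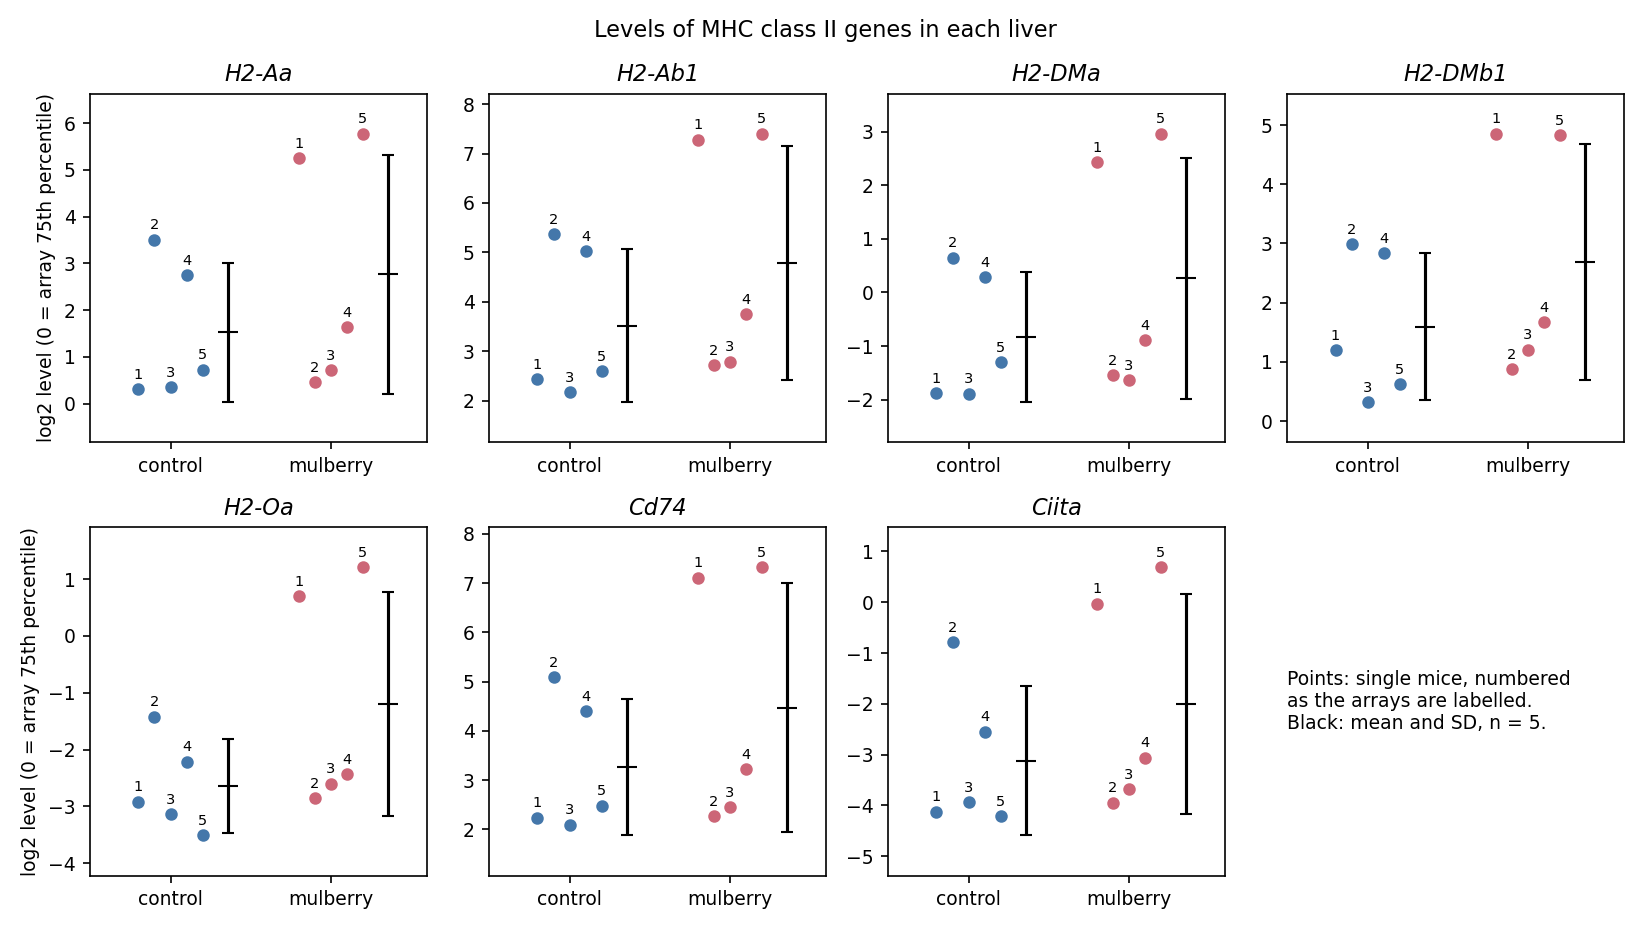
Log2 level (0 is the 75th percentile of the array) of 7 class II genes in each liver, with the number of the mouse beside each point and the mean and SD of 5 mice in black. In every panel mulberry 1 and mulberry 5 are above the 5 controls, control 2 and control 4 come next, and mulberry 2, 3 and 4 overlap with the controls.

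Of the 7 genes tested, 0 passed the limma test at an adjusted p under 0.05, where 0% of the 17847 genes tested passed it. At an unadjusted p under 0.05 the count was 0 of 7, against 926 genes or 5.19% of all. It was 1 of 7 (H2-Oa) with normexp, with slide as a fixed block and without mulberry 2. In these 3 fits 727, 3622 and 1182 of the 17847 genes were under that p. Within the slide that held both groups, mulberry 1 alone stands against control 1 and control 4, and the median difference of the members was 3.31. The 7 were higher on average with mulberry, which held for 47.3% of all genes, and their median difference was 1.21 against -0.015 over all. Each of the 7 was higher by 1 or more, which held for 1.01% of genes. In 0 of 7 did the mulberry arrays lie wholly apart from the control arrays, against 0.74% of genes. The members vary together, so they are not 7 independent observations.

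The spread of the members among mice was large beside that of other genes. The SD over the 5 mulberry livers was 1.98 to 2.55, against a median of 0.33 over all genes, and 0.51% of genes had an SD at least as large as the smallest of these. Over the 5 control livers the SD was 0.83 for H2-Oa and 1.21 to 1.55 for the other 6. The range from the lowest to the highest of the 10 livers was 4.53 (H2-DMb1) to 5.46 (H2-Aa), against a median of 1.02, and 0.605% of genes had a range of at least 4.53. By range, H2-Aa stood at rank 32, H2-Ab1 at 42, Cd74 at 43, Ciita at 62, H2-DMa at 69, H2-Oa at 77 and H2-DMb1 at 108 of 17847.

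**Figure D2:**
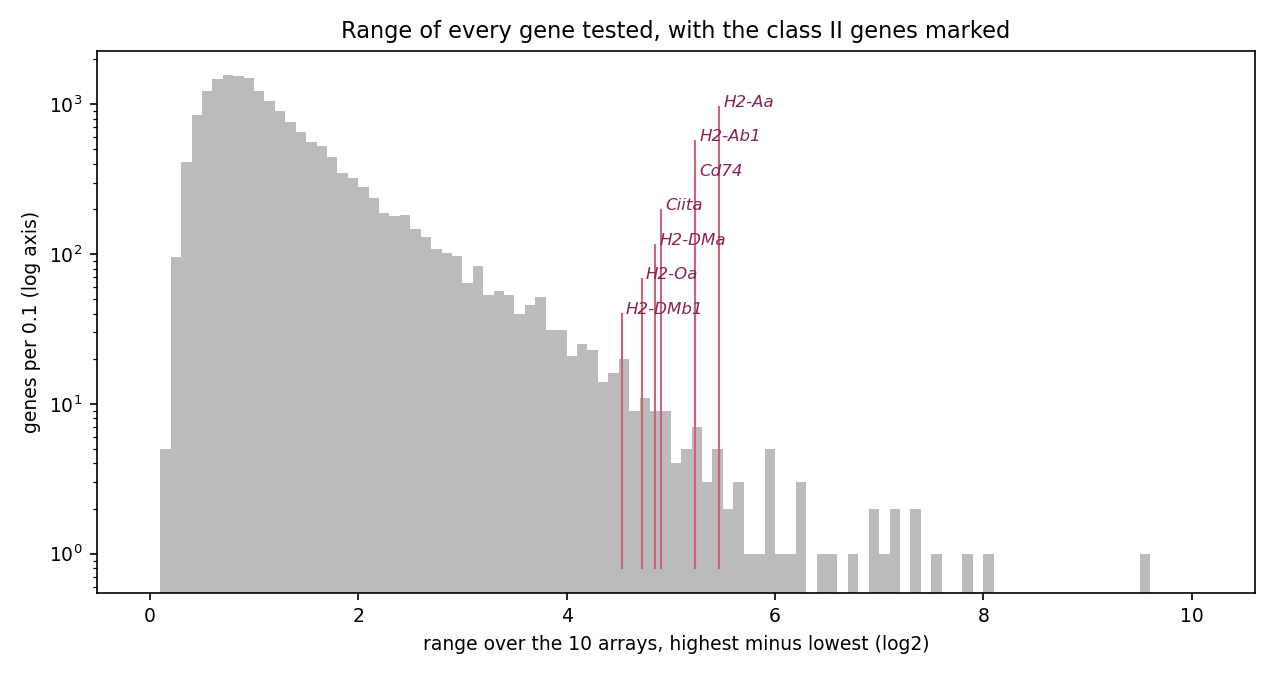
Histogram of the range over the 10 arrays (highest minus lowest log2 level) for the 17847 genes tested, with the number of genes on a log axis and the 7 class II genes marked by lines. The class II genes lie between 4.53 and 5.46, far to the right of the median of 1.02.

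The members had a shared order of livers as well as in their range. In 7 of 7, mulberry 1 and mulberry 5 were highest, followed by control 2, control 4 and mulberry 4 in that order, an order named after its values were seen. It held for 1.65% of all genes. The same 4 livers at the top, in any order, held for 4.24% of genes, and mulberry 1 and mulberry 5 at the top for 11.2%. The order below the fifth place differed from gene to gene. The lowest liver was control 3 for H2-Ab1, H2-DMa, H2-DMb1 and Cd74, control 5 for H2-Oa and Ciita and control 1 for H2-Aa.

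Relative to the mean of the controls, the average of the 7 genes was 3.47 in mulberry 1 and 3.84 in mulberry 5. It was -0.76 in mulberry 2, -0.58 in mulberry 3 and 0.08 in mulberry 4. The controls stood at -0.86, 1.73, -1.05, 1.03 and -0.85. The 4 livers with positive values above 1 were spread over 3 slides and both scan days, control 2 and mulberry 5 on day 1 and control 4 and mulberry 1 on day 2. Within scan day 1, which held 3 controls and 2 mulberry livers, the median difference of the members was 1.71, and within day 2, with 2 controls and 3 mulberry livers, it was 0.87.

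The direction of the difference rested on mulberry 1 and mulberry 5. Without both of them the median difference was -0.44, and H2-Aa was at -0.59 ± 0.75, Cd74 at -0.62 ± 0.69 and Ciita at -0.44 ± 0.73 (SE). Only H2-Oa, at 0.01 ± 0.42, was not below 0 in that fit. No member passed the limma test there.

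**Figure D3:**
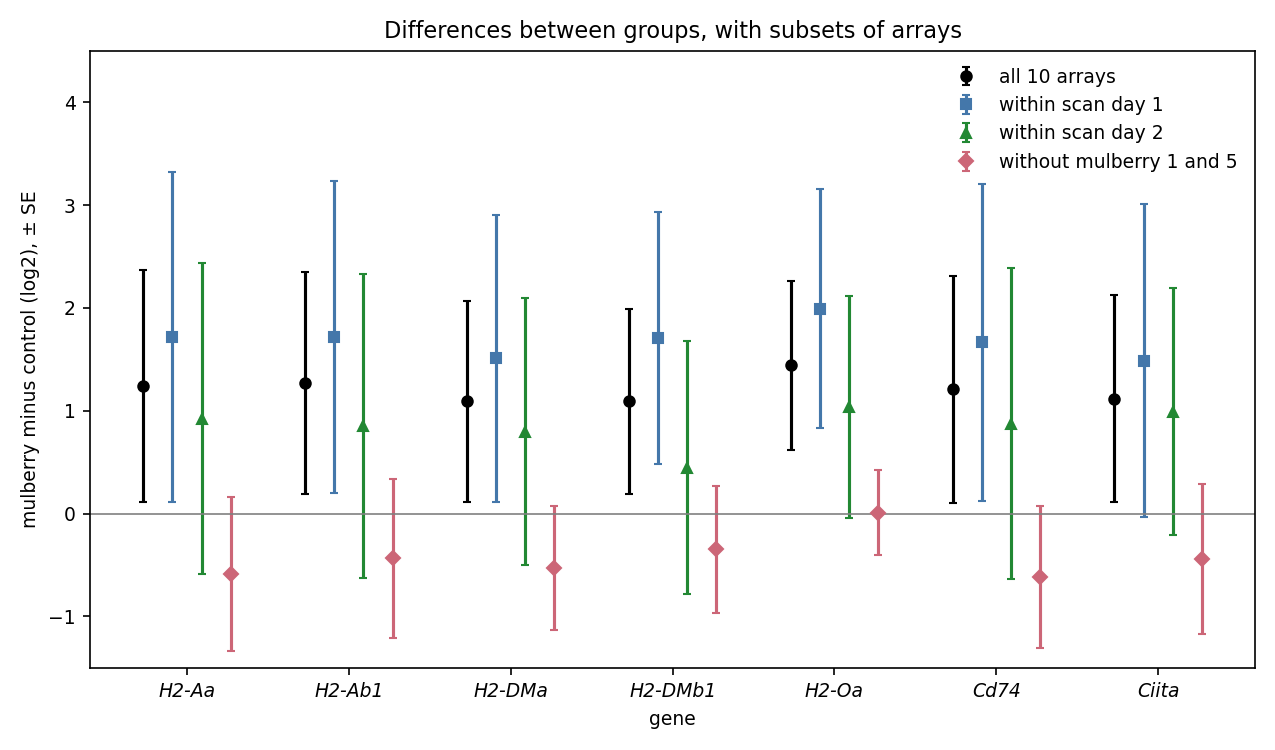
Mulberry minus control (log2, with the SE of the limma fit) for each of the 7 genes, over all 10 arrays, within each scan day, and without mulberry 1 and mulberry 5. With all arrays the values run from 1.09 to 1.44. Without these 2 livers, left out after their high values were seen, they run from -0.62 to 0.01.

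The members also differed among themselves in how far the high livers stood above the rest. Relative to the geometric mean of the controls, mulberry 5 was 19.0 times as high in H2-Aa, 16.7 times in Cd74 and 14.8 times in H2-Ab1, and 9.44 times in H2-DMb1. Mulberry 5 exceeded mulberry 1 by 0.72 in Ciita, 0.53 in H2-DMa, 0.52 in H2-Aa and 0.51 in H2-Oa, and the pair differed by 0.02 in H2-DMb1. Each liver is 1 array, so these differences have no replicate check. As a measure of likeness, each gene was set against the mean of the other 6 by the root mean square difference of their centred log2 profiles over 10 arrays. H2-DMa (0.21) and Cd74 (0.23) lay closest to the others and H2-Oa (0.50) farthest.

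Different probes of a gene gave nearly the same result. H2-Aa, H2-DMb1 and H2-Oa had 2 probes each and H2-Ab1 had 3, and the differences of the probes of 1 gene lay within 0.02 to 0.09 of each other. All 12 probes were higher with mulberry, by 0.998 to 1.44, with ranges from 4.41 to 5.99. In the test of every probe 0 of 12 passed (limma, smallest adjusted p = 0.913), as did 0% of 23243 probes. The 8 members of the deposited table gave differences from 0.97 (Ciita) to 1.43 (H2-Eb1), and 0% of its 21193 genes passed the limma test.

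The DNA-binding partners of CIITA had levels that followed another order of livers. Of 8 genes of this complex (the RFX subunits, the NF-Y subunits, Creb1 and Atf1) 3 were higher, 5 were lower and 0 passed the test, with a median difference of -0.026 and a median range of 0.91; with other scalings that median ran from -0.18 to 0.007. Rfx5, the subunit that binds the X box, had log2 levels from -4.11 to -2.67 in the controls and from -4.91 to -3.16 in the mulberry livers (difference -0.36 ± 0.35, SE). Rfxap (-0.04 ± 0.18) and Rfxank (0.004 ± 0.19), its 2 partners, had ranges of 0.82 and 0.95. The largest difference was in Nfya (0.55 ± 0.26), a subunit of the Y box factor, highest in mulberry 4. In 0 of these 8 genes were the top 4 livers those of the class II genes.

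Genes that prepare antigens for class II were mixed. Of 14, 8 were higher, 6 lower and 0 called. Their median difference of 0.067 turned to -0.083 under median scaling and -0.15 with normexp background correction. Over all genes tested the median was -0.015, -0.17 and 0.033 in the same 3 settings. Yet 3 of the 14 had the class II order of the first 5 livers. They were Ctss, the protease that trims the invariant chain, Ifi30, the reductase that opens disulfide bonds of antigens, and Marchf1, the ligase that removes class II from the surface. Ctss had log2 levels of 4.40, 6.08, 4.28, 5.31 and 4.89 in control 1 to 5 and of 7.27, 4.41, 4.57, 5.08 and 7.66 in mulberry 1 to 5 (difference 0.81 ± 0.66, SE). Ifi30 (0.58 ± 0.67) and Marchf1 (0.69 ± 0.60) had ranges of 3.33 and 3.11. Lgmn, the endopeptidase legumain, spanned 2.04 with a difference of 0.20 ± 0.39, and the lysosomal proteases Ctsd (0.32 ± 0.23) and Ctsl (-0.30 ± 0.15) spanned 1.29 and 0.999.

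The next list held interferon gamma, its receptors, signalling genes and induced genes, and also the inhibitory cytokines Il10, which was too dim to test, and Tgfb1. Of 13 tested, 11 were higher, 2 lower and 0 called (median difference 0.42). Under median scaling and with normexp 8 were higher and 5 lower (medians 0.27 and 0.15), and 13 were higher with both other scalings. In 11 the top 4 livers were those of the class II genes, and in 7 the first 5 were in the same order; Tgfb1 is among both counts. Ifng itself had log2 levels of -4.68, -1.38, -5.62, -2.61 and -4.70 in control 1 to 5, and of -0.55, -4.83, -4.52, -3.89 and 0.67 in mulberry 1 to 5. It was well above background on 4 of 5 control and 3 of 5 mulberry arrays, so its low values, and its range of 6.30, rest partly on signal near background. Gbp2, a GTPase induced by the cytokine, spanned 5.23 (difference 0.80 ± 1.13) and Socs1, its feedback inhibitor, 3.43 (0.73 ± 0.69). Irf1, a transcription factor induced by the cytokine, spanned 1.96, with a difference of 0.097 ± 0.44. The 2 lower genes, named after their values were seen, were Igtp (-0.02 ± 0.74) and Irgm1 (-0.01 ± 0.40). Both were highest in control 2 (6.08 and 3.60), with the same 4 livers at the top.

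Genes of class I presentation were highest in the same livers over a smaller range. In 13 of 14 genes tested the top 4 livers were those of the class II genes, and in 1 of 14 the first 5 were in the same order. The median difference was 0.21 (-0.083 with normexp) and the median range 1.38, against 4.91 for the members. H2-K1, a class I heavy chain, had log2 levels from 8.08 to 8.81 in the controls and from 8.08 to 9.01 in the mulberry livers (0.09 ± 0.21). H2-D1 (0.15 ± 0.27) and B2m (-0.02 ± 0.20), the other heavy chain and the shared light chain, spanned 1.15 and 0.89. Tap1, the peptide transporter, and Psmb8, an inducible proteasome subunit, spanned 2.91 and 2.52. The 1 gene below an unadjusted p of 0.05 was the chaperone Calr, at -0.49 ± 0.17. Its p in the limma fit across all genes was 0.014 (adjusted p = 0.900).

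Few signals to T cells could be read. Of 11 listed genes 10 had a named probe and 3 were bright enough for the test; Tnfsf4, Cd70 and Ctla4 were not well above background on any array. Cd274, which codes for the inhibitory ligand PD-L1, followed the class II genes with a range of 4.6 (0.83 ± 1.0). Cd86, a co-stimulatory ligand, spanned 2.52 (0.03 ± 0.55). It was also highest in mulberry 5, mulberry 1 and control 2, in that order. Icosl spanned 3.54 (0.32 ± 0.69).

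Markers of cells that carry class II were set beside the members on the same arrays, and their part in the result was not tested. Of 9 B cell markers tested 9 were higher (8 under median scaling or quantile normalization) and 0 called, with a mean deviation from the controls of 1.48 in mulberry 1 and 1.04 in mulberry 5. In the controls this mean ran from -0.23 to 0.42, with control 4 at -0.03, and in 0 of the 9 genes were the top 4 livers those of the class II genes. Ms4a1, which codes for the B cell antigen CD20, had log2 levels of -2.66, -2.19, -2.51, -2.55 and -3.07 in control 1 to 5 and of -0.94, -2.87, -2.07, -2.66 and -1.65 in mulberry 1 to 5. The summed level of the 12 listed B cell genes, in units of the 75th percentile, was 3.30 to 6.32 in the controls and 3.39 to 15.6 in the mulberry livers. Blnk gave 37.6% to 50.1% of that signal, and without it the sums ran from 1.72 to 3.16 and from 1.85 to 7.77.

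Of 8 dendritic cell markers tested 7 were higher (6 under median scaling or quantile normalization, 8 with normexp) and 0 called. Their mean was 1.51 in mulberry 1, 1.12 in mulberry 5, 0.58 in control 2 and 0.23 in control 4. In 3 of the 8 the top 4 livers were those of the class II genes. The first 5 were in the same order in 2 of them. Itgax, the integrin CD11c that dendritic cells share with some macrophages, came closest to the members with a range of 4.58 (0.81 ± 0.95). Cd209a and Siglech were not well above background on any array, and Flt3, a growth factor receptor of dendritic cells, spanned 1.78. Xcr1, the chemokine receptor of cross-presenting dendritic cells, was the 1 marker lower on average (-0.20 ± 0.20) and was lowest in mulberry 1 (-2.28). Batf3, a transcription factor of the same cells, had the class II order of the first 5 livers and spanned 3.17 (0.62 ± 0.60). Xcr1 and Batf3 are named after their values were seen. The summed level of the list ran from 3.17 to 19.4 in the controls and from 7.63 to 31.7 with mulberry. The probe of Ly6d gave 89.9% of that signal in control 1 and 62.6% in mulberry 1, and without it the sums ran from 1.85 to 4.94 and from 1.83 to 11.8.

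Of 16 macrophage markers tested 15 were higher and 0 called. The count was 13 under median scaling or with normexp, and 16 after quantile normalization. Their mean was 1.88 in mulberry 1, 1.83 in mulberry 5, 0.87 in control 2 and 0.21 in control 4. In 10 of the 16 the top 4 livers were those of the class II genes. Lyz2, the lysozyme of myeloid cells, spanned 4.82 (1.21 ± 0.95) and the monocyte receptor gene Ccr2 4.65 (1.02 ± 0.91). Markers of resident Kupffer cells differed among themselves. The lectin gene Clec4f spanned 0.66 (-0.06 ± 0.16) and Vsig4 1.26 (0.10 ± 0.29). Timd4 spanned 2.57 (0.38 ± 0.53) and Marco 4.43 (0.66 ± 0.97). In Timd4 and Marco mulberry 1 and mulberry 5 were highest, followed by control 2, control 4 and mulberry 4. Clec4f, Vsig4, Timd4 and Marco are named after their values were seen. The summed level ran from 192.2 to 543.8 in the controls and from 171.6 to 943.4 with mulberry, and no marker of the list was below background on every array. Cd5l gave 26.1% to 50.2% of that signal, and without it the sums ran from 97.6 to 341.6 and from 91.3 to 697.

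Of 9 T cell markers tested 9 were higher and 0 called, and in 7 the top 4 livers were those of the class II genes. Their mean was 2.01 in mulberry 1, 1.90 in mulberry 5, 0.62 in control 2 and 0.30 in control 4. Cd3d (1.02 ± 0.75), a chain of the T cell receptor complex, spanned 3.96, and the kinase gene Lck (1.09 ± 0.73) spanned 3.85. The other markers named here, after their values were seen, had another order: Cd3e, a further chain of that complex, was at -2.33 in mulberry 1 and highest in mulberry 3 (-1.36), and Cd4, the co-receptor for class II, was lowest in mulberry 1 (-4.43) and highest in mulberry 2 (-2.98). The summed level was 1.32 to 2.89 in the controls and 1.67 to 9.39 with mulberry, and Trat1 was not well above background on any array.

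Endothelial markers differed little beside these, with means from -0.25 to 0.25 over the 10 livers. Hepatocyte markers were lowest in mulberry 1 (-0.90), control 2 (-0.41) and mulberry 5 (-0.29), and 11 of 11 were lower with mulberry on average (8 of 11 after quantile normalization), 0 called. Their summed level ran from 2046 to 2925 in the controls and from 1292 to 2860 with mulberry. Stellate cell markers had means of 1.07 and 1.18 in mulberry 1 and mulberry 5, but -0.41 in control 4, where the class II genes were intermediate. Of 4 neutrophil markers tested 4 were higher and 0 called, with means of 1.92 in mulberry 1 and 1.97 in mulberry 5. Of 5 bile duct markers 2 were higher and 0 called (5 were higher with normexp).

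**Figure D4:**
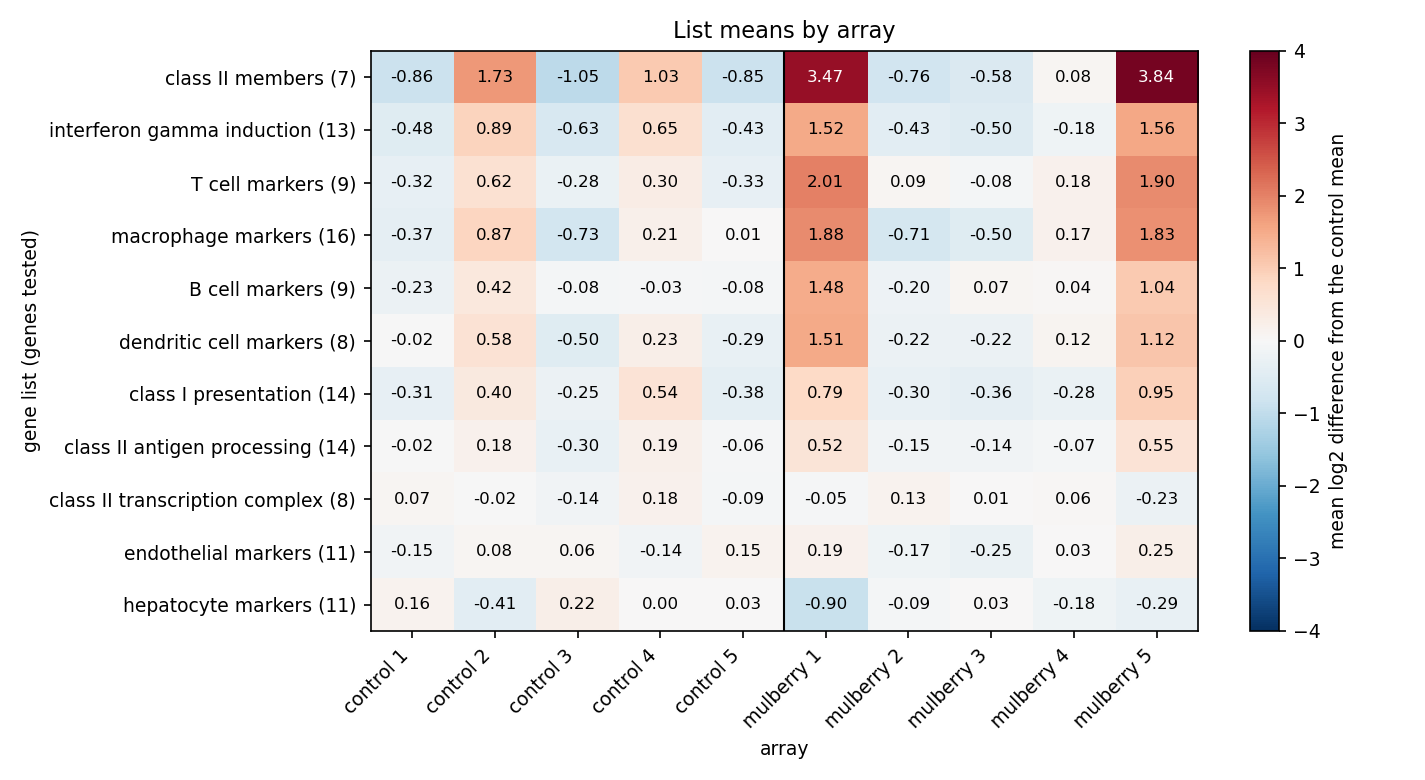
Mean log2 difference from the control mean for a selection of the gene lists (rows, with the number of genes tested) on each array (columns). Red is higher and blue lower than the mean of the 5 controls. The class II genes reach 3.47 and 3.84 in mulberry 1 and mulberry 5, while the interferon gamma, T cell and macrophage lists reach 1.52 to 2.01 on the same arrays. Among lists not drawn, the 3 tested genes of signals to T cells reach 2.25 and 2.16 there. The neutrophil markers reach 1.92 and 1.97.

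Outside the members, the genes most like their mean profile were found among all 17840 other genes tested by the root mean square difference of centred log2 levels over 10 arrays. The closest 6 were Napsa (0.24), an aspartic protease, Cd274 (0.24), Procr (0.25), the receptor of protein C, Gbp2b (0.29), an interferon-induced GTPase, a probe that the array design names X52641 (0.29), and Fgl2 (0.29), a fibrinogen-like protein. The median over all genes was 1.87. No gene symbol was matched to X52641, so that probe may belong to a member and is no independent look-alike. It was at 6.54 in mulberry 1 and 6.52 in mulberry 5. H2-Eb1, the member without a named probe, was also somewhat higher in mulberry 1 than in mulberry 5. Whether the probe measures H2-Eb1 was not tested. Napsa had log2 levels of -2.77, -0.64, -3.09, -1.07 and -2.73 in control 1 to 5 and of 1.61, -2.65, -2.52, -1.84 and 1.22 in mulberry 1 to 5. The differences of the 6 were 0.83 to 1.35, with SE from 0.91 to 1.1, and 0 passed the test.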

How the data were processed

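Per the file headers, the deposited scanner tables hold a Cy3 fluorescence intensity for every spot, from which background was already subtracted on each array, with no step that made arrays comparable. The submitters' processing notes name Agilent Feature Extraction 10.1.1.1. The deposited series table holds a linear intensity per gene symbol; its normalization by the authors is not stated in any source used here. Its column medians of log2 intensity ran from 5.10 to 5.31. Of the value columns, 0 were left out for belonging to another sample.

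Outlier-flagged spots were left out, spots of a probe averaged in log2, and 46 of 41174 probes without a value on every array dropped. Saturation occurred in 0 spots. Accessions, stripped of versions, were matched to RefSeq (GRCm38.p6) to name probes, which gave a name to 25070 probes (61.0%). The headers name an older build, so coordinates are printed for RefSeq promoters alone. Log2 signals were scaled by subtracting the 75th percentile of the array. The brightest probe represented a gene, and a gene entered the test where 4 or more of the 5 arrays in either group had it well above background (17847 of 32636). Differences (mulberry minus control) were tested with limma 3.58.1 in R 4.3.3, two-sided; p-values were adjusted by Benjamini-Hochberg across all of these genes. The fit was also run on simulated data, with genes drawn independently and shifts shared by all mulberry arrays. The members vary together and are high in only some mulberry livers, so that run does not speak to them. Other software was data.table (1.17.8), Python (3.11.15) and matplotlib (3.10.9). The number of arrays limits the precision.

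The members, the gene lists and the arrays left out were chosen with earlier results of these data known, and no list has a test for that reason. Named were all members, 16 preset partners, the 6 most similar genes, and some of the 5 genes of each list with the largest absolute difference. Some genes too dim to test, and the gene with the largest part of some summed levels, were also named. Clec4f, Vsig4, Timd4, Marco, Xcr1, Batf3, Cd3e, Cd4, Igtp and Irgm1 were added after their values were seen. One of the preset partners is not reported here. Alternatives covered scaling, background correction, the series table, filters, probe averaging, weights, scan day, slide and replicate number as blocks, and leaving out arrays. Normexp used the median signals, since the files hold no mean signal, and this was chosen after seeing the files.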

Additional observations from a re-analysis of the deposited data

How the results depend on the processing

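The number of genes called was 0 with all arrays, 1 with array weights, 1 without mulberry 1 and 5, and 0 to 1 without a single array (1 without mulberry 1), and 0 in the other fits; no class II member passed the threshold in any of them. Median scaling moved the median difference of all genes by -0.15 and left the 7 members higher. Under it 4877 of the 17847 genes tested were higher with mulberry, against 8447 in the main scaling, so counts within lists fall with it too. Genes at an unadjusted p under 0.05 numbered 926 with all arrays, 1990 under median scaling, 1573 without the filter on dim genes, 2691 when arrays were weighted, 3622 with slide as a fixed block, 547 to 1306 without a single array, 1746 without mulberry 1 and 5, 3207 on the slide that held both groups and 330 among the arrays of scan day 2. The median difference of the class II members was 1.21 with all arrays and 0.50 to 1.76 without a single array, lowest without mulberry 5 (0.50) and mulberry 1 (0.62) and highest without mulberry 2 (1.76). It was 0.59 with array weights. It was 3.31 with slide as a fixed block and also 3.31 within the slide that held both groups, since that fit rests on mulberry 1 against control 1 and control 4. Without mulberry 1 and 5 the difference was -0.59 in H2-Aa, -0.44 in H2-Ab1, -0.53 in H2-DMa, -0.35 in H2-DMb1, -0.62 in Cd74 and -0.44 in Ciita. Of 189 values of single members under alternatives, 183 kept their direction and their side of the threshold and these 6 were below 0; the adjusted p ran from 0.091 to 1. With the replicate number as a block (replicate block) the median was 1.21 and the count 0. Numbers do not pair the mice: deviations of same-numbered arrays correlated across genes with r from -0.44 to 0.41, and control numbers differ between the files. Fits restricted to a scan day or to the shared slide, fits that drop mulberry 1 and 5 together, and normexp on median signals were added after seeing the data. Ciita, H2-Oa, H2-DMa and Ifng lie below the 75th percentile on most arrays, and background weighs more on low values.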
